A study of Mus musculus with 12 samples.

Results

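Of the Wnt ligands, their receptors and their secreted regulators, Wnt2 was the gene that set the Thy population apart from the other sorted mouse bone populations. It was 7.11-fold higher in Thy than in CSP (adjusted p = 0.00514) and 4.28-fold higher in Thy than in SSC (adjusted p = 0.0379), with 4 arrays against 4 in limma. The difference from SSC passed under only 9 of 27 alternatives and not with the mouse as a block (-2.05, adjusted p = 0.107). No other family gene tested passed between populations, and none passed for JUN. The probe sets of 10 of 12 receptor genes lay above the array median on all 12 arrays, and those of 5 of 19 ligands did. These counts were not set against the share over all genes. The inhibitor Wif1 and the receptor Fzd9 were highest on the same 3 arrays. These also had the highest mean levels of cartilage, osteoblast and tendon marker genes.

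The family was taken as every gene with a probe set of its own whose symbol reads Wnt, Fzd, Sfrp or Dkk with a number, together with Wif1, Lrp5, Lrp6 and Rspo1 to Rspo4. A probe set with several symbols named no gene, and the probe set of highest mean over the 12 arrays stood for its gene. This gave 44 genes of the 18193 on the array, from 83 probe sets: 19 ligands, 12 receptors, 9 inhibitors and 4 R-spondins. Of these, 32 passed the filter on dim probe sets (above the median of the array on at least 2 arrays) and were tested among 12516 genes. Those 32 are 10 ligands, 11 receptors, 8 inhibitors and 3 R-spondins.

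Each array holds total RNA of sorted osteoprogenitors from mouse limb bones, skull cap, scapula, vertebrae and ribs. The labels name 3 populations, SSC, CSP and Thy, and the design text writes BCSP and Thy+ for the last 2. All mice carried inducible JUN, a subunit of the AP-1 transcription factor. Pups of the JUN arm received doxycycline through the drinking water of their mother, and sorting followed 2 days of induction. The -JUN arm is read here as the arm without induction, which the labels do not spell out, and for the promoter of the transgene and for ages nothing is given in the sources used here. Each of the 6 groups (SSC -JUN, SSC JUN, CSP -JUN, CSP JUN, Thy -JUN, Thy JUN) has 2 arrays. The titles name 5 mice, and whether 1 name always means 1 animal is not settled by the labels. By title, mouse 3 gave the replicate 1 arrays of -JUN, mouse 3b the replicate 2 arrays of -JUN in CSP and Thy, and mouse 10 replicate 3 of SSC -JUN. Mouse 4 gave replicate 1 and mouse 7 replicate 2 of JUN in all populations. Values are log2 expression values made by the authors, so a difference of 1 is a doubling, and levels of different genes are not compared since their probes differ.

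Wnt proteins are secreted, lipid-modified signals. In the canonical branch a Wnt binds a frizzled receptor and the co-receptor LRP5 or LRP6, and beta-catenin then accumulates and acts with TCF/LEF factors in the nucleus. Other branches act without beta-catenin, on cell polarity and calcium. SFRP proteins and WIF1 bind Wnts outside the cell, DKK proteins such as DKK1 block LRP5 and LRP6, and R-spondins keep receptors at the surface by drawing away the ligases that remove them. In bone, canonical signalling is known to favour the osteoblast over the cartilage and fat lineages, and loss of LRP5 in people causes low bone mass.

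The labels and the arrays were checked first. Thy1, the gene of the antigen after which Thy is named, lay at 12.80 to 13.30 in Thy and at 7.28 to 9.63 elsewhere. Ptprc, the pan-leukocyte marker, stayed at 5.45 to 6.54. Of the further genes listed as sort antigens, Eng lay at 7.95 to 8.24 in SSC and at 9.07 to 10.40 elsewhere. Cd200, Itgav, Enpep and Tek overlapped between the populations, with Tek at 8.10 to 10.88. Jun itself lay between 12.06 and 13.65 without induction and between 12.13 and 13.18 with it, and its average difference was -0.13 (SE 0.23, adjusted p = 0.799). Whether its probe set reads the transgene is not known. The mean of 12 chondrocyte markers was 13.37 to 13.53 on SSC JUN replicate 1, CSP JUN replicate 1 and CSP -JUN replicate 2 and 8.49 to 10.85 on the other 9 arrays. Array medians lay between 7.65 and 7.76. P-values measure the spread between these arrays, several of which share a mouse by title. The titles of 3 of the 4 SSC arrays carry a date and those of CSP and Thy carry none, so SSC and that date are partly confounded. The spiked poly-A control probe sets lay at 8.47 to 9.95 on those 3 arrays and at 11.24 on the undated SSC array. With the date as a term, which rests SSC on that 1 array, no family gene passed in SSC minus Thy or SSC minus CSP.

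The 9 ligands left out of the tests were dim on nearly every array: Wnt1, Wnt3, Wnt3a, Wnt7a, Wnt7b, Wnt8a, Wnt8b, Wnt10a and Wnt10b. With Fzd10, Dkk4 and Rspo4 they make up the 12 untested genes, whose values lay between 4.83 and 8.10. Of the 44 genes, 7 were never above the array median. A dim probe set can also be a poor one, so low signal does not show that a gene was silent. In the plot of all 44 genes 10 of the 12 receptors lie wholly to the right of the grey band of array medians, and the R-spondins spread across it. The share of all genes that lie above it on every array was not counted, so the receptor count cannot be called unusual. The brightest probe set stood for each gene, which favours genes with several, such as Fzd3 with 6.

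**Figure D1:**
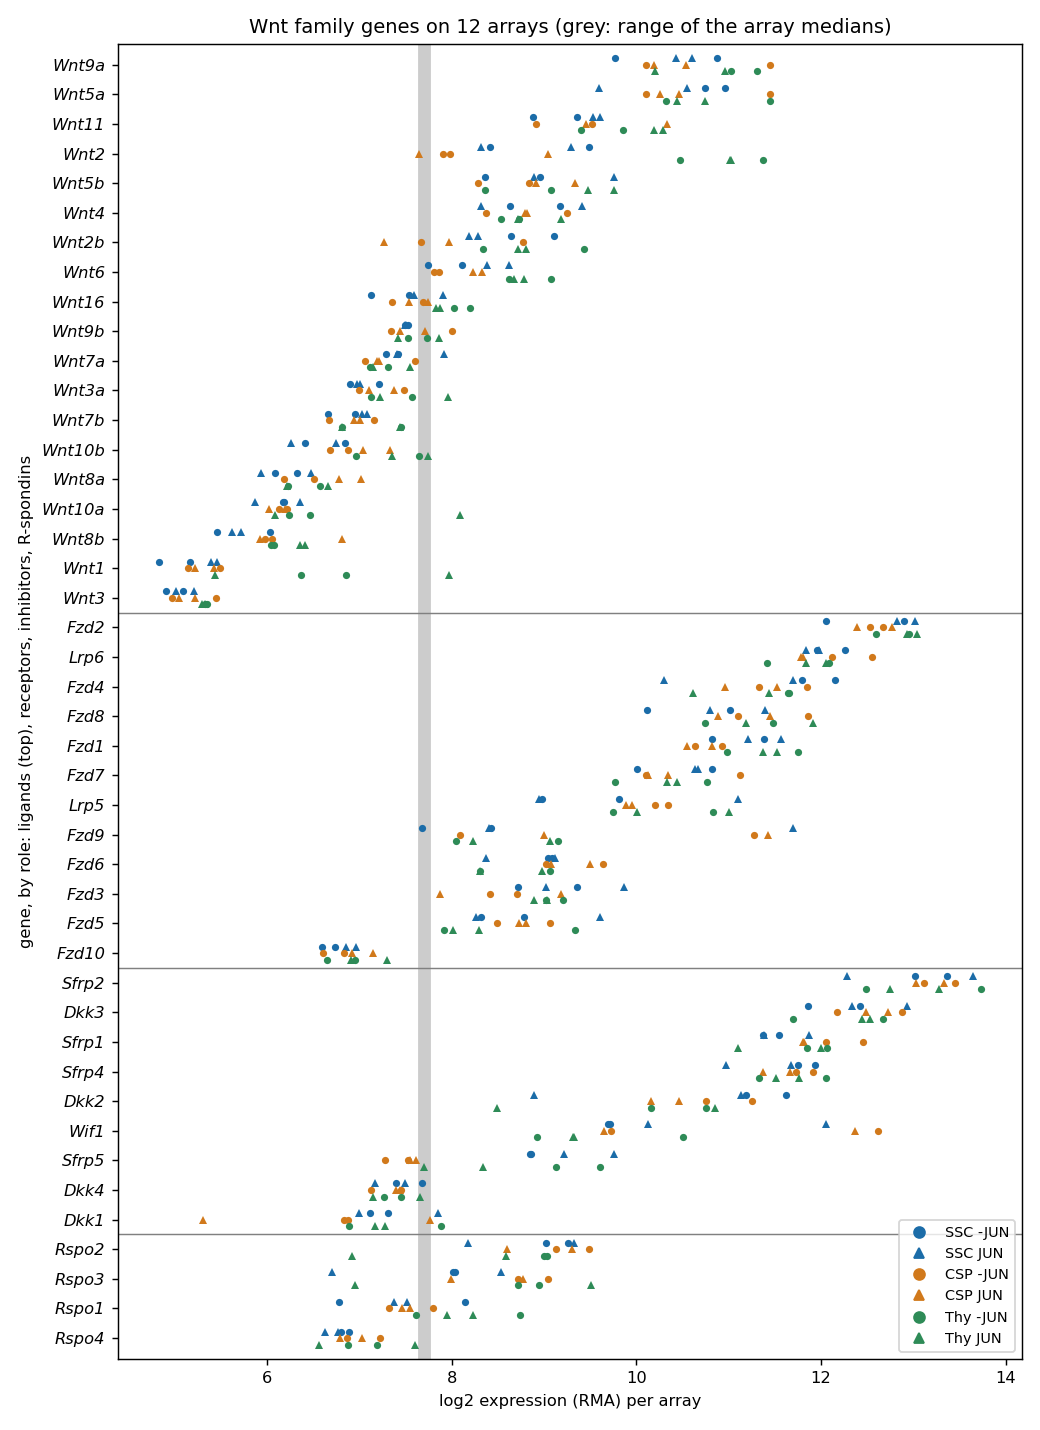
Log2 expression (x axis) of the 44 Wnt family genes on each of 12 arrays, grouped by role and ordered by mean; colour marks the population, circles -JUN and triangles JUN. The grey band is the range of the array medians, 7.65 to 7.76: 21 genes lie above the median on all 12 arrays, and Fzd9 and Wif1 each have 3 arrays apart from the others.

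In each role the 3 genes whose probe sets had the highest mean are described, which is a rule of choice and not an order of transcript levels. Among the ligands these were Wnt9a, which acts in joint formation, Wnt5a, a main ligand of the non-canonical branch, and Wnt11, another non-canonical ligand. In each population the 4 arrays are given with the 2 of -JUN first and the 2 of JUN after them, by replicate number. Wnt9a read 10.87, 9.77, 10.43 and 10.60 in SSC, 11.44, 10.11, 10.20 and 10.54 in CSP and 11.30, 11.03, 10.20 and 10.96 in Thy. The populations overlapped, and the highest array of each was from mouse 3. Wnt5a read 10.96, 10.74, 9.60 and 10.55 in SSC, 11.45, 10.10, 10.26 and 10.46 in CSP and 10.32, 11.45, 10.74 and 10.44 in Thy. Its populations overlapped as well, and the lowest array was SSC JUN replicate 1.

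Wnt2, a canonical ligand best known from lung and placenta, is encoded at 6:17985474-18032772 (RefSeq, GRCm38.p6) and has 1 probe set here. The 30 bases that precede its start site in RefSeq (6:18030446-18030475, minus strand, inside the annotated gene) are shown to place that start.
Wnt2: ctgggctcgtcttttgaaactttatcagtg
Wnt2 read 9.49, 8.41, 8.31 and 9.29 on the 4 SSC arrays. In CSP it read 7.91, 7.98, 7.65 and 9.04, and in Thy 11.38, 10.48, 11.02 and 11.02. All 4 Thy arrays were above all 8 others, while SSC and CSP overlapped.

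The mean of Wnt2 was 10.97 ± 0.37 in Thy, 8.88 ± 0.60 in SSC and 8.14 ± 0.61 in CSP (SD, n = 4). CSP minus Thy was -2.83 (SE 0.36, adjusted p = 0.00514 in limma) and SSC minus Thy -2.10 (SE 0.36, adjusted p = 0.0379). Averaged over populations, Wnt2 differed with JUN by 0.11 (SE 0.31, adjusted p = 0.869). SSC minus CSP was 0.73 (95% interval -0.05 to 1.51, adjusted p = 0.801), so those neighbours did not differ beyond their spread. Wnt2 was the 1 family gene of 32 that passed in CSP minus Thy, where 0.991% of all genes passed, and the 1 of 32 in SSC minus Thy, where 0.391% did. In bulk RNA fewer cells of a type and less RNA per cell cannot be told apart.

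The difference from CSP was kept with the mouse as a block (-2.83, adjusted p = 0.00462) and lost its call without mouse 3 (-2.62, adjusted p = 0.0644). The difference from SSC lost its call with that block (-2.05, adjusted p = 0.107) and on leaving out any of 9 single arrays, while its size stayed between -1.87 and -2.35. The 7 smooth muscle and pericyte markers, all above the array median on every array, had their highest means in Thy. The mean was 11.68 to 12.43 in Thy, 10.73 to 11.18 in SSC and 10.45 to 10.67 in CSP. Rgs5, Kcnj8, Abcc9 and Notch3 were each higher on every Thy array than on all others. Acta2, Myh11 and Cspg4 overlapped between Thy and SSC, and Myh11 and Cspg4 were highest on SSC JUN replicate 1 (12.14 and 13.03). Within Thy the mean was lowest on -JUN replicate 1 (11.68), where Wnt2 was highest (11.38). The part of those cells in the Wnt2 difference was not tested. The poly-A control probe sets were also high in Thy, at 11.33 to 12.28 against 8.47 to 11.24 in SSC and 9.95 to 11.77 in CSP. With them as a covariate CSP minus Thy was -2.94 (adjusted p = 0.0207) and SSC minus Thy -2.395 (adjusted p = 0.48). With the date as a term SSC minus Thy was -2.79 (adjusted p = 0.116).

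The other ligands did not pass. Of the 10 ligands tested, counting Wnt2, 9 were lower in CSP than in Thy, with a median difference of -0.35. In SSC 9 of the 10 were lower than in Thy, with a median of -0.36. Over all genes the medians were -0.04 and -0.09, and 45.4% and 42.3% of all genes were higher. Without Wnt2 the ligands ran from -0.90 (Wnt2b) to 0.02 (Wnt4) in CSP minus Thy. In SSC minus Thy they ran from -0.59 (Wnt11) to 0.09 (Wnt4). Wnt6 came nearest after Wnt2. It read 7.74, 8.11, 8.62 and 8.39 in SSC, 7.87, 7.81, 8.24 and 8.33 in CSP and 9.08, 8.62, 8.79 and 8.67 in Thy. The Thy arrays lay above all CSP arrays and touched the highest SSC array. CSP minus Thy was -0.73 (SE 0.21, adjusted p = 0.157) and SSC minus Thy -0.58 (SE 0.21, adjusted p = 0.197). The latter turned sign with the poly-A controls as a covariate (0.036) and was -0.28 with the date as a term. Wnt6 and the untested Wnt10a are neighbours on chromosome 1, at 1:74754342-74785322 and 1:74792019-74804176.

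**Figure D2:**
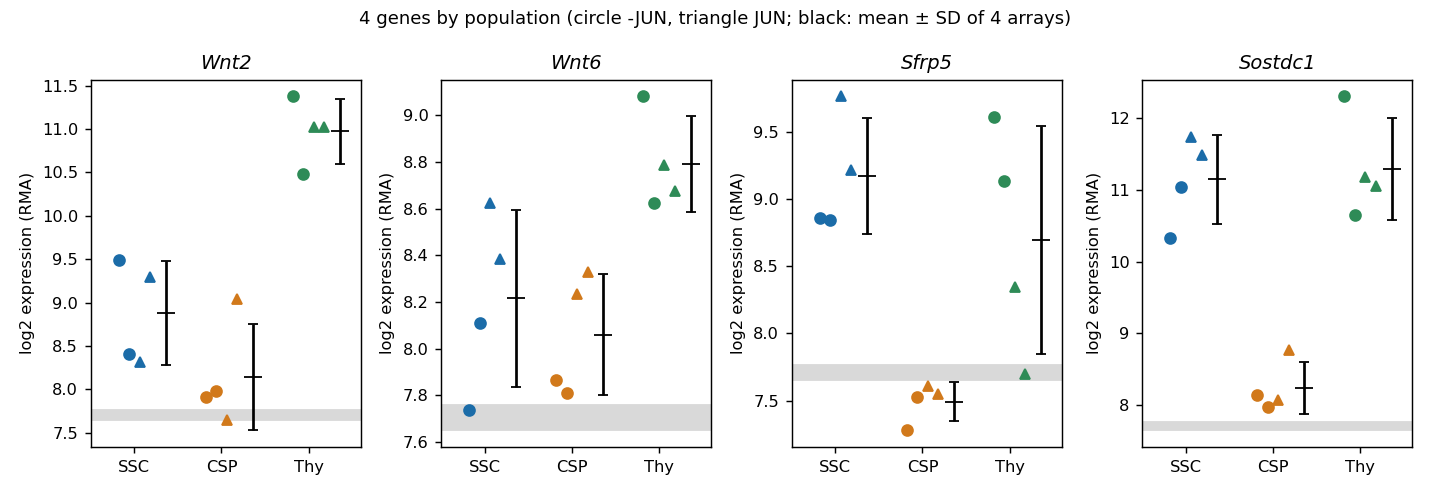
Log2 expression (y axis) of Wnt2, Wnt6, Sfrp5 and Sostdc1 by population; each point is 1 array (circle -JUN, triangle JUN), and black bars are the mean ± SD of 4 arrays. Wnt2 lies at 10.48 to 11.38 in Thy, above every other array, while Sfrp5 and Sostdc1 are lowest in CSP.

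With JUN averaged over populations, the ligands of lowest p were Wnt5b and Wnt11. No family gene and none of the 12516 genes (0%) passed for JUN in any population, on average or in the interaction. At an unadjusted p under 0.05 the averaged comparison held 1569 genes (12.5%), among them Wnt5b, Wnt11 and Fzd4 (9.38% of the 32). In limma the same unadjusted threshold held 813 genes for SSC (6.5%), 288 for CSP (2.3%) and 380 for Thy (3.04%), with 0, 0 and 2 family genes.

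Wnt5b, a non-canonical ligand expressed in growth plate cartilage, read 8.96, 8.36, 9.76 and 8.90 in SSC, 8.29, 8.83, 8.92 and 9.34 in CSP and 8.36, 9.08, 9.76 and 9.47 in Thy. The JUN arrays were above the -JUN arrays in CSP and Thy and overlapped them in SSC. The averaged difference was 0.71 (SE 0.24, adjusted p = 0.396), and in Thy it was 0.90 (SE 0.41, adjusted p = 0.985). Without Thy -JUN replicate 1 the difference in Thy was 0.54. A further probe set of Wnt5b, dimmer by its mean (8.20), gave an averaged difference of 0.79.

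Wnt11 read 9.36, 8.88, 9.61 and 9.53 in SSC, 8.91, 9.52, 9.46 and 10.33 in CSP and 9.86, 9.40, 10.29 and 10.19 in Thy. Its JUN arrays were above its -JUN arrays in SSC and Thy and overlapped them in CSP, where 1 array, JUN replicate 2, stood highest. The averaged difference was 0.58 (SE 0.22, adjusted p = 0.396) and that in CSP 0.68 (SE 0.37, adjusted p = 0.995). Without CSP JUN replicate 2 the difference in CSP was 0.24. Wnt6, the ligand of lowest p in SSC, was higher with JUN there by 0.58 (SE 0.29, adjusted p = 0.690) and in CSP by 0.44 (SE 0.29, adjusted p = 0.995), and lower in Thy by a difference of -0.12 (adjusted p = 0.985).

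Because JUN acts through AP-1 sites and canonical Wnt signals through TCF/LEF sites, the 250 bases before each RefSeq start site were searched on both strands. For AP-1 the letters were TGANTCA, and for TCF/LEF they were CTTTGAT. At least 1 start site was listed for 28 of the 44 genes, 31 in all, with a median GC content of 68%, against 52.4% over 32851 start sites. AP-1 letters stood before 1 of the 31 (Wnt5b) and before 6.75% of all start sites. TCF/LEF letters stood before 2 of the 31 (Wnt11 and another Wnt5b start) and before 3.21% of all. The matches are shown in capitals with their surroundings, since Wnt5b and Wnt11 are the ligands of lowest p in the averaged comparison.
Wnt5b, start site 1 (6:119544521-119544549, minus strand, match 191 bases before the start): tcaccaaaaggTGAGTCAcgcgtccgcgc
Wnt5b, start site 3 (6:119449440-119449468, minus strand, match 71 bases before the start): agtaagtctctCTTTGATctgctccctgt
Wnt11, start site 1 (7:98834862-98835083, plus strand, match 51 bases before the start): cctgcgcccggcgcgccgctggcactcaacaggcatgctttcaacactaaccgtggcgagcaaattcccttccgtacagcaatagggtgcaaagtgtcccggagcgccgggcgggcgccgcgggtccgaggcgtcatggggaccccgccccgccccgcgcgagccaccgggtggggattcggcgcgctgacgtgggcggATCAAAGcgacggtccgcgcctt
In Wnt11 the capitals are the reverse complement of the TCF/LEF letters. Both Wnt5b windows lie inside the annotated gene (6:119432531-119544824), which has several starts, and the arrays do not tell which start was used. A match describes letters, not a bound site.

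The receptors described by the same rule were Fzd2, Lrp6 and Fzd4. Fzd2, a frizzled of the developing skeleton and palate, read 12.90, 12.06, 13.02 and 12.83 in SSC, 12.53, 12.68, 12.39 and 12.77 in CSP and 12.59, 12.95, 12.93 and 13.04 in Thy. Lrp6, the co-receptor most needed in development, read 12.26, 11.95, 11.98 and 11.83 in SSC. It read 12.55, 12.11, 11.78 and 11.80 in CSP and 11.41, 12.08, 12.05 and 11.84 in Thy. For both genes the populations overlapped and the whole range was 0.99 and 1.14. Fzd10, at 6.60 to 7.29, was the 1 receptor not tested.

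No receptor passed between populations. Fzd1, bound by canonical ligands, read 11.38, 10.82, 11.57 and 11.21 in SSC, 10.93, 10.63, 10.82 and 10.55 in CSP and 10.98, 11.75, 11.52 and 11.37 in Thy. Its CSP arrays all lay below its Thy arrays, by a mean of -0.67 (SE 0.22, adjusted p = 0.245), and a further probe set gave 1.11 for Thy minus CSP. Fzd3, a receptor of planar polarity, had an SSC minus CSP difference of 0.70 (SE 0.30, adjusted p = 0.745). It was 0.43 without CSP JUN replicate 1 and 0.41 with the date as a term. Its other probe sets gave 0.30 to 1.48, and the mean of its probe sets gave 1.08 (adjusted p = 0.191 in limma). The SSC minus CSP difference of Fzd1 was 0.52 (SE 0.22, adjusted p = 0.745) and 0.83 with the date as a term. Fzd6 differed in sign between probe sets, at -0.65 for Thy minus CSP in the one used and 0.59 in another.

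Fzd4, the receptor that also binds norrin in vessel growth, had the lowest p of the receptors with JUN on average, in SSC and in Thy, while Lrp6 had it in CSP. It read 12.15, 11.79, 10.30 and 11.70 in SSC, 11.85, 11.33, 10.97 and 11.53 in CSP and 11.64, 11.65, 10.61 and 11.44 in Thy. In each population the lowest array was JUN replicate 1, and all 3 of those came from mouse 4. The difference with JUN was -0.97 in SSC (SE 0.47, adjusted p = 0.690) and -0.65 on average (SE 0.27, adjusted p = 0.396). Without SSC JUN replicate 1 the difference was -0.27 in SSC and -0.41 on average, and with the poly-A controls as a covariate these were 0.30 and 0.093. Without SSC JUN replicate 2 the difference in SSC was -1.67. Lrp6 was lower with JUN in CSP by a difference of -0.54 (SE 0.32, adjusted p = 0.995), where both JUN arrays lay below both -JUN arrays, and without CSP -JUN replicate 1 it was -0.32.

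Fzd9, a receptor active in osteoblasts, is described here because its range of 4.02 was the widest of the 32 genes, a choice made after its values were seen. It read 8.43, 7.67, 11.69 and 8.40 in SSC, 8.09, 11.27, 11.43 and 9.00 in CSP and 8.04, 9.15, 9.06 and 8.24 in Thy. The 3 arrays above 11 were the 3 of highest chondrocyte mean, and the gap to the next array was wider than the spread of the other 9. Wif1, chosen in the same way for its range of 3.70, read 9.70, 9.72, 12.06 and 10.13 in SSC, 9.73, 12.62, 12.37 and 9.64 in CSP and 8.93, 10.50, 9.32 and 9.32 in Thy. The same 3 arrays were again the highest. Of these, 2 belong to the JUN arm and 1 to the -JUN arm. All 12 chondrocyte markers were measured, and 8 of them lay above the array median on every array.

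Neither gene passed for population: CSP minus Thy was 1.32 for Fzd9 (SE 0.84, adjusted p = 0.548) and 1.57 for Wif1 (SE 0.74, adjusted p = 0.428). With JUN in SSC the differences were 2.00 (SE 1.22, adjusted p = 0.690) and 1.38 (SE 1.06, adjusted p = 0.712), and in both cases 1 JUN array of the 2 was high. SSC JUN replicate 1, CSP -JUN replicate 2 and CSP JUN replicate 1 also had the highest osteoblast means (12.66, 11.50 and 11.49, others 9.33 to 11.28). The same held for tendon means (11.63, 11.76 and 11.87, others 10.38 to 11.25). Single markers differed, with Col1a1 and Thbs4 highest on Thy JUN replicate 1 (15.56 and 14.36). The part of cartilage, bone and tendon cells in the Fzd9 and Wif1 values was not tested. The 250 bases before their start sites are shown because the genes moved together. Neither holds the AP-1 or TCF/LEF letters, nor ACAATGG, a core bound by SOX factors that stood before 0 of the 31 family start sites and 3.02% of all.
Wif1 (10:121033754-121034003, plus strand): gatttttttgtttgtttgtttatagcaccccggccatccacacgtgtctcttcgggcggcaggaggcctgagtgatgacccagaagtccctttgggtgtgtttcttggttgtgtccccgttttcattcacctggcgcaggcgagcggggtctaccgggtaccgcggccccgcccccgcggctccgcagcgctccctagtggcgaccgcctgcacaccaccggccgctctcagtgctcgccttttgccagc
Fzd9 (5:135251048-135251297, minus strand): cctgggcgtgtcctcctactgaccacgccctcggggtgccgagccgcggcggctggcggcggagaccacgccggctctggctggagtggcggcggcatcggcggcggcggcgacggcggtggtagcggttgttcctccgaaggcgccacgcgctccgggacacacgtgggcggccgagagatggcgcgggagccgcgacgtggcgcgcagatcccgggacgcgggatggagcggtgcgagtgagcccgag
The GC content was 76.4% before Fzd9 and 62.8% before Wif1.

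**Figure D3:**
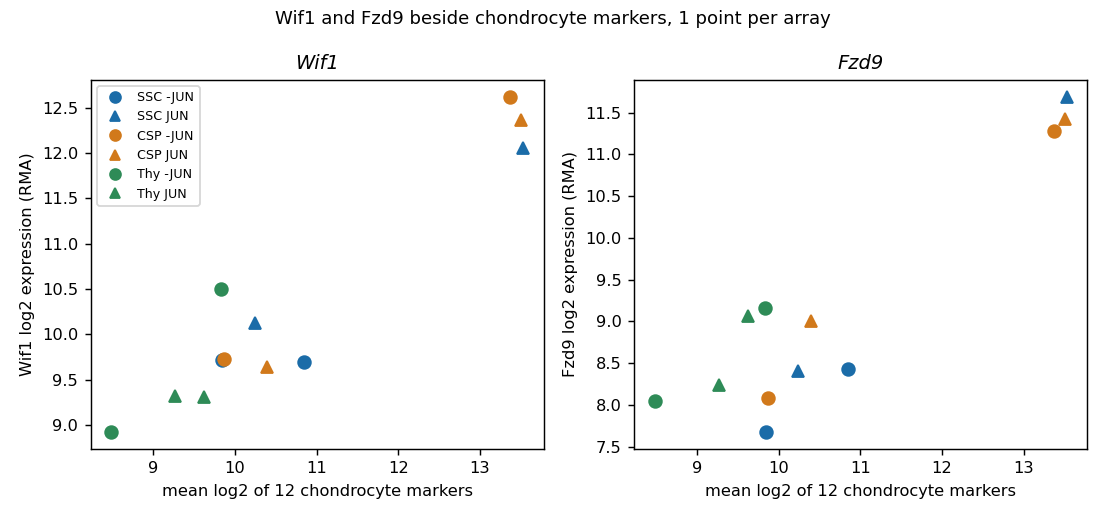
Log2 expression of Wif1 and Fzd9 (y axes) against the mean log2 value of 12 chondrocyte markers (x axis), 1 point per array, coloured by population. SSC JUN replicate 1, CSP JUN replicate 1 and CSP -JUN replicate 2 lie at 13.37 to 13.53 on the x axis and above 11 for both genes, apart from the other 9 arrays.

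The secreted inhibitors described by the same rule were Sfrp2, Dkk3 and Sfrp1. Sfrp2, a Wnt-binding protein of stromal cells, read 13.02, 13.37, 12.28 and 13.64 in SSC, 13.12, 13.45, 13.02 and 13.34 in CSP and 12.49, 13.74, 12.75 and 13.28 in Thy. Dkk3, a divergent DKK that does not block LRP6 as DKK1 does, read 12.43, 11.86, 12.94 and 12.34 in SSC, 12.17, 12.88, 12.72 and 12.49 in CSP and 11.70, 12.67, 12.53 and 12.44 in Thy. Sfrp1, an inhibitor whose loss raises bone mass in mice, read 11.55, 11.37, 11.87 and 11.38 in SSC, 12.45, 12.05, 11.80 and 11.81 in CSP and 11.85, 12.07, 11.10 and 12.004 in Thy. The populations overlapped for all 3 genes, and none passed in any comparison. Dkk1, the classical LRP6 blocker of bone, was above the array median on 3 arrays only and lay between 5.31 and 7.88.

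Sfrp5, an SFRP known from the retina and from fat, was the inhibitor that varied most between populations. It read 8.85, 8.84, 9.76 and 9.22 in SSC, 7.28, 7.53, 7.61 and 7.55 in CSP and 9.61, 9.13, 8.34 and 7.70 in Thy. The CSP arrays lay below all 8 others and below the medians of their arrays. SSC minus CSP was 1.68 (95% interval 0.88 to 2.47, adjusted p = 0.0951), and CSP minus Thy was -1.20 (SE 0.36, adjusted p = 0.201). Neither passed, and in SSC minus CSP no family gene did, against 0.431% of all genes. With the poly-A controls as a covariate CSP minus Thy was -0.65, and with the date as a term SSC minus CSP was 2.44 (adjusted p = 0.105). Fitted on only the 8 arrays of SSC and CSP, the same difference had an adjusted p of 0.0105, within a range of 0.0104 to 0.406 over the alternatives. The other probe set of Sfrp5 gave a smaller difference, 0.50 for SSC minus CSP and 0.30 for Thy minus CSP.

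The mean of the Schwann cell markers was, like Sfrp5, lowest in CSP. Of 7 listed, 5 were measured and none was above the median on every array. Their mean was 7.25 to 8.0 in CSP, 8.92 to 9.98 in SSC and 8.36 to 9.96 in Thy. Sox10 and Mbp were lower on every CSP array than on all others. Mpzl2, Cdh19 and Gfra3 overlapped between CSP and SSC, and Mpzl2 read 6.24 to 8.40 in CSP and 6.39 to 7.25 in Thy. The mean of the endothelial markers ran the other way, at 7.96 to 8.59 in CSP, 6.57 to 7.40 in SSC and 7.08 to 7.92 in Thy. Of those markers only Emcn was higher on every CSP array than on all others. The mean of the smooth muscle and pericyte markers was also lowest in CSP, at 10.45 to 10.67 against 10.73 to 11.18 in SSC and 11.68 to 12.43 in Thy. Of those markers only Acta2 was lower on every CSP array (11.55 to 11.98) than on all others (12.44 or more). The part of Schwann, endothelial, smooth muscle and pericyte cells in the Sfrp5 difference was not tested.

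With JUN, no difference of Sfrp5 passed, and the signs in Thy and SSC were opposite except with the poly-A controls as a covariate. Both JUN arrays in Thy lay below both -JUN arrays, by -1.35 (SE 0.33, unadjusted p = 0.00216 and adjusted p = 0.985 in limma). In SSC both JUN arrays lay above, by 0.64 (SE 0.33, adjusted p = 0.690), and in CSP by 0.18 (SE 0.33, adjusted p = 0.995). The SSC difference was 0.37 without SSC JUN replicate 1 and -0.11 with that covariate. The moderated F test of the interaction gave 9.78 with an unadjusted p of 0.00413 and an adjusted p of 1, where 144 of all genes (1.15%) lay under an unadjusted 0.05. The other probe set gave an average difference with JUN of 0.01 against -0.18 in the one used.

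Dkk2, a DKK that can inhibit or activate the pathway, is given because its range of 3.13 was the next widest among the tested genes, again seen first. It read 11.19, 11.62, 8.89 and 11.13 in SSC, 11.25, 10.76, 10.47 and 10.16 in CSP and 10.16, 10.76, 8.49 and 10.86 in Thy. The 2 low arrays were SSC JUN replicate 1 and Thy JUN replicate 1, both from mouse 4, while the CSP array of that mouse was not low. The averaged difference with JUN was -0.96 (SE 0.46, adjusted p = 0.401).

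Of the R-spondins, Rspo2 and Rspo3 repeated those 2 low arrays. Rspo2, which takes part in limb and lung growth, read 9.26, 9.02, 8.18 and 9.32 in SSC, 9.13, 9.48, 9.30 and 8.60 in CSP and 9.00, 9.03, 6.92 and 8.59 in Thy. Rspo3, a regulator of bone mass, read 8.01, 8.04, 6.71 and 8.54 in SSC, 8.72, 9.04, 8.77 and 7.99 in CSP and 8.72, 8.95, 6.96 and 9.51 in Thy. For both genes SSC JUN replicate 1 was the lowest SSC array and Thy JUN replicate 1 the lowest Thy array. Rspo1, known for its part in ovary development, read 8.14, 6.78, 7.37 and 7.51 in SSC, 7.79, 7.32, 7.46 and 7.55 in CSP and 7.61, 8.74, 7.95 and 8.23 in Thy. It did not show the pattern, its lowest array being SSC -JUN replicate 3.

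In Thy, Rspo2 was lower with JUN by a difference of -1.26 (SE 0.54, adjusted p = 0.985), and without Thy JUN replicate 1 it was -0.42. All 3 tested R-spondins had negative differences with JUN in every population, and none passed. Those of Rspo1 were small against their SE of 0.48, at -0.02 for SSC, -0.05 for CSP and -0.09 for Thy. Dim further probe sets gave averaged differences of 0.12 for Rspo2 and -0.17 for Rspo3, against -0.67 and -0.50 in those used. The median of the 3 genes was -0.39 for SSC, -0.36 for CSP and -0.60 for Thy. The medians over all genes were 0.08, 0.07 and 0.04. Adipocyte and reticular markers, 8 of 8 measured and 7 above the median on every array, had means of 9.75 on SSC JUN replicate 1 and 9.83 on Thy JUN replicate 1, the lowest of the 12 arrays. The others lay between 10.25 and 11.33. Single markers differed: Lpl and Cxcl12 were lowest on the 2 low arrays. Cebpa had its highest value of the 12 arrays on Thy JUN replicate 1 (10.23), and Lepr its highest in Thy (9.29). On CSP JUN replicate 1, where Fzd4 was lowest in CSP, the mean of the list was 10.39. The part of adipocyte and reticular cells in the values of Dkk2, Fzd4, Rspo2 and Rspo3 was not tested.

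For JUN, the share of family genes without overlap between the arms was near that of all genes in each population. In SSC 10 of the 32 genes did not overlap (31.2%), against 38.4% of all genes, in CSP 8 (25%) against 31.2%, and in Thy 7 (21.9%) against 28.6%. Averaged over populations, with 6 arrays against 6, no family gene was free of overlap, against 0.376% of all genes. In CSP 24 of 32 family genes had a lower mean with JUN, while 57% of all genes had a higher one. The receptors were 10 of 11 lower there, with a median difference of -0.10. Between populations 5 of 32 genes (15.6%) did not overlap in CSP minus Thy, against 6.11% of all genes. All 5 were lower in CSP (against 4.29% of all genes), namely Wnt2, Wnt6, Wnt16, Fzd1 and Sfrp5. The count was 1 in SSC minus Thy (Wnt2, against 7.59%) and 1 in SSC minus CSP (Sfrp5, against 4.06%).

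**Figure D4:**
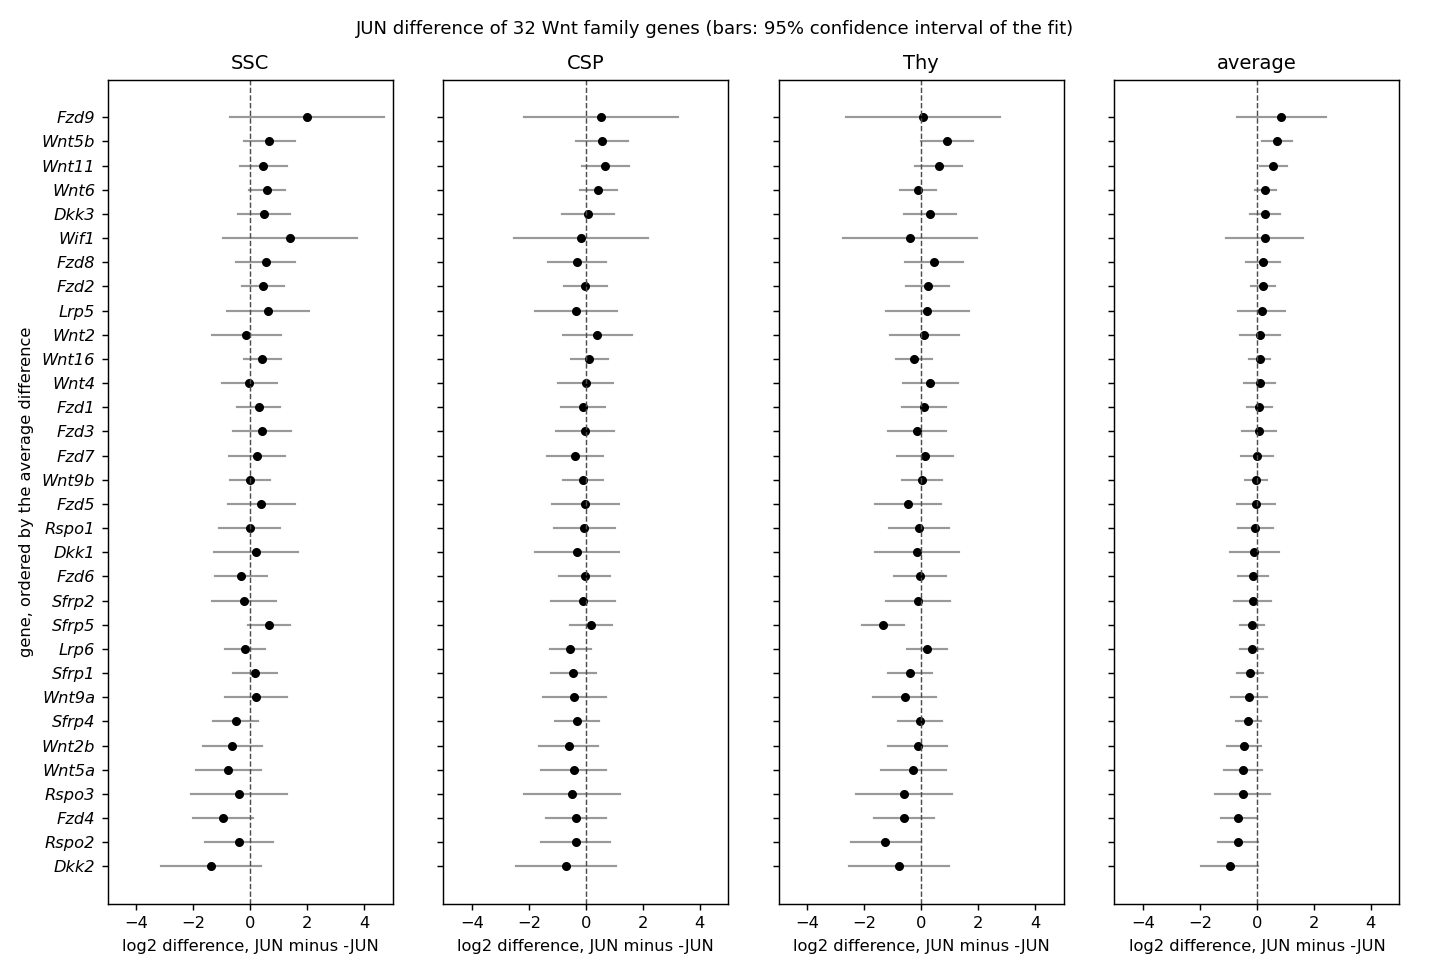
Log2 difference of JUN minus -JUN (x axis) for the 32 tested Wnt family genes in each population and averaged over the 3; points are the fitted differences and bars their 95% confidence intervals. Wnt5b and Wnt11 have averaged differences of 0.71 and 0.58 and Fzd4 one of -0.65, and no gene passes after adjustment over all genes.

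The pathway around the family was read from 3 lists. Of 27 genes of Wnt secretion and the cell surface, 22 were tested, and 1 passed. Sostdc1, a secreted antagonist of BMP and Wnt signals, read 10.33, 11.05, 11.74 and 11.49 in SSC, 8.14, 7.97, 8.08 and 8.77 in CSP and 12.31, 10.65, 11.18 and 11.05 in Thy. All CSP arrays lay below all others. SSC minus CSP was 2.91 (SE 0.37, adjusted p = 0.00428) and CSP minus Thy -3.06 (SE 0.37, adjusted p = 0.00388). The sizes were kept where calls were lost: SSC minus CSP was 2.80 with the mouse as a block (adjusted p = 0.0663) and 3.40 with the date as a term (adjusted p = 0.0523). Without the 3 arrays of highest chondrocyte mean the differences were 2.54 (adjusted p = 0.148) and -2.84 (adjusted p = 0.0529). Sostdc1 was thus lowest in CSP, like Sfrp5. The Schwann marker values above, lower on every CSP array for Sox10 and Mbp only, were not tested against it either. Nor were those of the smooth muscle and pericyte markers.

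Of 27 genes that carry the signal inside the cell, such as Ctnnb1 for beta-catenin itself, 26 were tested and none passed in any comparison. Of 19 symbols listed for feedback and target genes, 14 were tested, and Wisp1 and Wisp2 are earlier names of the tested Ccn4 and Ccn5. Notum, Apcdd1, Znrf3, Rnf43 and Lgr5 stand on the surface list as well. Of the 14, 1 passed. Ccnd1, the cyclin D1 gene, read 11.41, 11.74, 11.85 and 11.42 in SSC. It read 10.58, 10.91, 10.63 and 10.93 in CSP and 11.84, 11.63, 11.50 and 11.62 in Thy. Every CSP array lay below all SSC and Thy arrays. SSC minus CSP was 0.85 (SE 0.19, adjusted p = 0.1 in limma) and SSC minus Thy -0.04, and neither passed. CSP minus Thy was -0.89 (SE 0.19, adjusted p = 0.0468). The call was lost under most alternatives, with the mouse as a block among them (-0.89, adjusted p = 0.104), while the difference stayed between -0.71 and -0.955 over all of them. Axin2, the feedback gene most used as a readout of canonical signalling, lay between 7.37 and 8.83 and did not pass, with a difference of -0.39 for CSP minus Thy (adjusted p = 0.659) and 0.17 averaged for JUN (adjusted p = 0.774). No gene of the 3 lists passed for JUN or in SSC minus Thy. By direction with JUN in SSC, 13 of 14 feedback genes (median 0.58) and 19 of 22 surface genes (0.46) were higher. Of the genes inside the cell 16 of 26 were, against 56.3% of all genes (median 0.08). Feedback genes were 10 of 14 higher in CSP (57% of all genes) and 8 of 14 in Thy (53.6%). In SSC, Axin2 differed by 0.60 (SE 0.49, adjusted p = 0.714 in limma), reading 8.83 on JUN replicate 1 and 7.37 on JUN replicate 2.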

How the data were processed

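The deposited table holds the authors' log2 expression values. Per the submitters' processing notes they come from RMA, whose version was not given in the sources used here. RMA removes background, brings the arrays to the same distribution and combines probes into probe sets, which compresses differences of dim genes and hides a change in total RNA. Values ran from 3.20 to 15.99. Of 45101 probe sets, 64 controls were left out, and the platform annotation gave 34945 of the rest 1 symbol. A probe set was kept if above its array's median on at least 2 arrays, and the probe set of highest mean stood for its gene, which left 12516 genes.

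The test was limma's (version 3.58.1, R 4.3.3; lmFit, then eBayes) and two-sided, and its p-values were adjusted by Benjamini-Hochberg over all 12516 genes, with 0.05 as the threshold. For populations the model held population and arm (8 residual degrees of freedom). JUN was tested as contrasts of 6 group means (6 residual degrees of freedom), so every pair of arrays shares 1 estimate of the spread, and arrays of a mouse counted as independent in the average. The scripts were tested on simulated data. Positions and start sites are from RefSeq on GRCm38.p6, in which all 44 genes were found.

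Per-array values are given for each family gene that passed, the 3 of lowest p in each JUN comparison and the 3 of highest mean in each role, for pathway genes that passed between populations, and for genes named as seen first. The members and the gene lists were chosen with earlier results of these data known. The lists of 7 osteoblast, 5 tendon, 7 skeletal muscle, 8 leukocyte and 4 erythroid markers had means of 9.33 to 12.66, 10.38 to 11.87, 8.48 to 9.99, 6.56 to 7.60 and 6.01 to 6.87.

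The titles give the mouse. Arrays of 1 mouse name were taken as 1 animal, which joins dated SSC titles to undated CSP and Thy titles and which the labels do not settle; the values with the mouse as a block rest on it. Deviations of such arrays from their group means correlated at -0.214 to 0.429 over 10 pairs. With 2 arrays a group the deviations mirror each other, so pairs repeat values and are not independent. Both pairs of SSC and Thy with JUN, for example, gave 0.429. Arrays of 1 number in both arms come from different mice.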

Additional observations from a re-analysis of the deposited data

Results flagged for a closer look

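Fzd6 in SSC read 8.37 on SSC JUN replicate 2, while the other 3 SSC arrays lay between 9.04 and 9.12. This was 1 of 96 sets of 4 arrays examined that had an array so far from the rest, and chance gives about 1 in 20.

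The JUN difference of Sfrp5 was unlike between populations by the moderated F test of limma, at an unadjusted p of 0.00413. It did not pass after adjustment over all genes (adjusted p of 1), and the direction was lower with JUN on 2 of 2 arrays in Thy and higher on 2 of 2 in SSC and in CSP.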

How the results depend on the processing

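With 2 arrays a group for JUN and shared mice, precision is limited by the number of arrays and mice. In SSC minus CSP the count of family genes that passed was 0, and 1 (Sfrp5) on only the arrays compared and with the poly-A controls as a covariate (2.61, adjusted p = 0.0104); leaving out 1 array gave 0 to 1, with 1 without Thy -JUN replicate 1 or Thy JUN replicate 2. In SSC minus Thy the count of 1 (Wnt2) was 0 without the filter on dim probe sets, without mouse 10, 3, 3b or 7, with the mouse as a replicate block, on only the arrays compared, with the poly-A covariate and with the date in the titles as a term, and 0 to 1 on leaving out 1 array. It was kept without SSC JUN replicate 1, CSP JUN replicate 1 or CSP JUN replicate 2, and Wnt2's adjusted p ranged from 0.0209 to 0.48. In CSP minus Thy the count of 1 was 0 without mouse 3. With JUN it was 1 in SSC (Dkk2), 2 in Thy (Rspo2, Rspo3) and 4 on average (Dkk2, Fzd4, Rspo2, Rspo3) without mouse 7, which leaves mouse 4 alone in the arm. With the poly-A covariate, signs turned for Wnt6 in SSC minus Thy (0.036), for JUN in SSC of Fzd4 (0.30) and Sfrp5 (-0.11), and for the averaged JUN difference of Fzd4 (0.093); the cause was not tested. Blocks by replicate number for JUN and by mouse as a random block for the average left the count of family genes at 0. Of 859 values under an alternative, 777 kept their direction and side of the threshold, or a count within 1.5 times. Genes that did not pass and counts of 0 are held as kept while they stay so, which raises this share. It is therefore no measure of how stable the calls were. Wnt2 kept its call under 26 of 27 alternatives in CSP minus Thy and under 9 of 27 in SSC minus Thy.

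Counts over all genes ranged from 7 to 66 in SSC minus CSP (54 as reported), from 0 to 304 in SSC minus Thy (49) and from 17 to 155 in CSP minus Thy (124). For JUN they ranged from 0 to 282 in SSC, 0 to 2 in CSP, 0 to 175 in Thy and 0 to 495 on average, all reported as 0. Ccnd1 passed under 5 of 27 alternatives. The term for the date and leaving out the 3 arrays of highest chondrocyte mean were chosen after seeing the data, and without those 3 arrays Wnt2 passed in both comparisons (-1.84, adjusted p = 0.0424 and -2.50, adjusted p = 0.0498).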

Other observations

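Outside the family as defined, Frzb and Notum, 2 further secreted Wnt inhibitors, had their highest values on the 3 arrays where Wif1 and Fzd9 were highest. Frzb, an SFRP relative of cartilage, read 11.47 on SSC JUN replicate 1, 11.06 on CSP -JUN replicate 2 and 10.79 on CSP JUN replicate 1, and 7.53 to 8.43 on the other 9 arrays. Notum, an enzyme that removes the lipid of Wnt proteins, read 10.49, 9.13 and 8.99 on those arrays and 6.68 to 7.77 on the others. Both were chosen after their values were seen, and neither passed in any comparison. CSP minus Thy of Frzb was 1.41 (SE 0.86, adjusted p = 0.530 in limma).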
